A study of Homo sapiens with 10 samples.

Results

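The genes described here are 9 genes known from secretory epithelia: ANO1, AGR2, LCN2, MUC1, MUC20, PIGR, SLPI, WFDC2 and SLITRK6. They were taken by name, and every probe set annotated to exactly 1 gene was used where that gene was one of the 9. These are 9 of 19775 genes named in this way, and they hold 21 of 54675 probe sets, of which 14 passed the filter on low values described below. The 9 genes were chosen on their measured differences between these same groups, as earlier results had given them. Their differences between groups are therefore given as a description, with standard errors and intervals but without p-values.

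Secretory epithelia line ducts and airways and release fluid, mucus and defence proteins into a lumen. Fluid secretion is driven by chloride leaving the cell through apical channels, of which the calcium-activated channel ANO1 is one. Mucins and other secreted proteins are folded in the endoplasmic reticulum with the help of disulfide isomerases such as AGR2, and antimicrobial proteins and protease inhibitors such as LCN2 and SLPI are released with them. In the prostate these tasks belong to luminal cells, while basal cells lie beneath them.

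The data are 10 Affymetrix HG-U133 Plus 2.0 arrays of RWPE-1, an immortalised and non-tumorigenic line of human prostate epithelial cells. They were transduced with MSCV retroviruses, selected as stable clones and kept under normal growth conditions, and all carried the biotin ligase BirA. The clones expressed BirA with the ETS transcription factor ERG (3 arrays), BirA with the ETS transcription factor ETV1 (4 arrays), or BirA alone as controls (3 arrays). The series design speaks of biological replicates, but nothing says that they came from separately derived clones, so the spread behind each p-value is that among these arrays and may be technical in part. Values are intensities on a linear scale, and a log2 fold change is the difference in log2(intensity + 16), which understates the change of dim probe sets.

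The brightest ETV1 probe sets fitted the ETV1 label, whereas the ERG probe sets did not settle the ERG label. The ETV1 probe set 217053_x_at averaged 1320 on the ETV1 arrays and 88.1 on the control arrays. The brightest ERG probe set, 222079_at, averaged 9.43 on the arrays labelled ERG, against 186 on the control arrays, while another, 211626_x_at, averaged 36.5 on the arrays labelled ERG, against 9.04 in control cells. The remaining ERG probe sets, 213541_s_at and 241926_s_at, averaged 33.5 and 26.4 on the arrays labelled ERG, against 25.5 and 17.2 in control cells. Directions drawn from the arrays labelled ERG carry that limit. Those arrays also stood apart as libraries, with Spearman correlations across probe sets of 0.766 to 0.811 with the control arrays, against 0.956 to 0.969 between ETV1 and control arrays. Their median intensity was 48.5 to 52.6, against 71.4 to 73.4 on the control arrays, and the signal at the 3 prime end of ACTB over that at its 5 prime end, which rises when RNA is degraded, was 2.75 to 3.07, against 1.35 to 1.40 on the control arrays. The same ratio for GAPDH differed less, at 0.946 to 1.04 on the arrays labelled ERG, 0.994 to 1.05 on the ETV1 arrays and 0.893 to 0.931 on the control arrays. All 6 measured markers of basal prostate epithelium, KRT5 and KRT14 among them, lay above the array's median on all 10 arrays. Of the 8 measured luminal markers, 3 lay above the median on every array labelled ERG, 3 on every ETV1 array and 5 on every control array, with KRT8 and KRT18 the brightest, while KLK2, MSMB and FOLH1 did not pass the filter.

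The promoters of the 3 genes that were highest in ETV1 cells relative to control and of LCN2, which was lower, are shown because ETV1 and ERG, the factors named in the labels, belong to the ETS family, whose members bind DNA around a GGAA core. Each sequence runs 5′ to 3′ on the gene's strand from 250 bases before to 50 bases after the start given by RefSeq (GRCh38.p14), and capitals mark GGAA on either strand. ANO1 is at chr11:69985657-69985956 (+ strand), AGR2 at chr7:16804950-16805249 (- strand), SLITRK6 at chr13:85799370-85799669 (- strand) and LCN2 at chr9:128149203-128149502 (+ strand).
ANO1: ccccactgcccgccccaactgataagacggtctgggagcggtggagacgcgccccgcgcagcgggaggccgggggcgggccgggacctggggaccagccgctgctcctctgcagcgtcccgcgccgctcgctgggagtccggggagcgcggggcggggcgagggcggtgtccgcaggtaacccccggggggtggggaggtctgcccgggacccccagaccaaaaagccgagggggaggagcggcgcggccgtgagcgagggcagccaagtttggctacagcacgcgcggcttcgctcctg
AGR2: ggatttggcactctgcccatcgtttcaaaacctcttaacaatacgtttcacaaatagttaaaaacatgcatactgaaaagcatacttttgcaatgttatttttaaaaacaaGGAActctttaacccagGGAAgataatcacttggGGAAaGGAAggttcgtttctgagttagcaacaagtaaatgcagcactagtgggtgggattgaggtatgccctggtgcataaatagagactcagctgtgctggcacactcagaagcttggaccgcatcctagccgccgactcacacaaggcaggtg
SLITRK6: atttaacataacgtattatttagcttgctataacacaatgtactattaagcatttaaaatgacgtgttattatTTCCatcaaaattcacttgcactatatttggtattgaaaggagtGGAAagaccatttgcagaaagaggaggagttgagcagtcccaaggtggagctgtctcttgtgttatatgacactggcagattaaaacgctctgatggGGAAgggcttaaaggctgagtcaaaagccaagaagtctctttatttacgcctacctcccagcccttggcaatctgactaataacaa
LCN2: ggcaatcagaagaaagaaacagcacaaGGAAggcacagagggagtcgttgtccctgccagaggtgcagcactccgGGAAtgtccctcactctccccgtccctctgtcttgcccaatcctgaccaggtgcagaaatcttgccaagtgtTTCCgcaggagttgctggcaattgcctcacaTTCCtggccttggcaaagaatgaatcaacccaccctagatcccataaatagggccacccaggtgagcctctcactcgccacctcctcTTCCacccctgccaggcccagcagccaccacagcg
The ANO1 window held 0 matches to GGAA on either strand, the AGR2 window 4, the SLITRK6 window 3 and the LCN2 window 5. GGAA was found in 95.5% of the 35116 windows of the reference table, with a median of 3 matches, so that its presence sets no gene apart. The longer letters AGGAAG, which contain GGAA, occurred in 4 of the 7 windows given for these genes, those of AGR2, LCN2, MUC1 and PIGR, and in 33.6% of all windows. CCGGAA, which also contains GGAA, occurred in 0 of the 7 and in 17.2% of all windows. A match is a description of the letters and not a binding site, and a missing match says nothing of sites elsewhere.

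In ETV1 cells ANO1, AGR2 and SLITRK6 were several fold higher than in control cells, SLPI was moderately higher and LCN2 was lower, while PIGR and the brightest probe sets of MUC1 and MUC20 lay close to their control levels. Of the 14 member probe sets tested, 7 were called higher and 1 lower (limma, Benjamini-Hochberg adjusted p under 0.05), and these belong to 5 genes. Among all 25969 probe sets tested 23.5% were called, 10.4% higher and 13.1% lower. Because the genes were chosen with this comparison known, the count is not evidence about them. Both ANO1 probe sets and the SLITRK6 probe set 235976_at passed the filter only through the ETV1 arrays. The 3 and 4 arrays did not overlap for 11 of all 21 member probe sets, tested or not, against 34.1% of the probe sets tested. These shares cover unlike sets, since the 21 include dim probe sets that were not tested. The arrays measure RNA of many cells together, so fewer cells of a type and less RNA per cell cannot be told apart. Some epithelial markers moved with these groups too. The basal sum was 24970 to 27325 on the ETV1 arrays, against 17973 to 19965 on the control arrays. KRT14, KRT15, DST and LAMB3 were called higher, and KRT5 and ITGB4 were not called. The luminal sum was 5873 to 8444 on the ETV1 arrays, against 9170 to 10697 on the control arrays. KRT18 (-0.57) and ACP3 (-0.60) were called lower, while KRT8 (0.06), KLK3 (-0.02) and TMPRSS2 (-0.61) were not called. The sums of 7 general epithelial markers overlapped, at 11217 to 13005 on the ETV1 and 10613 to 15413 on the control arrays. The part of these markers in the differences of the 9 genes was not tested.

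**Figure D1:**
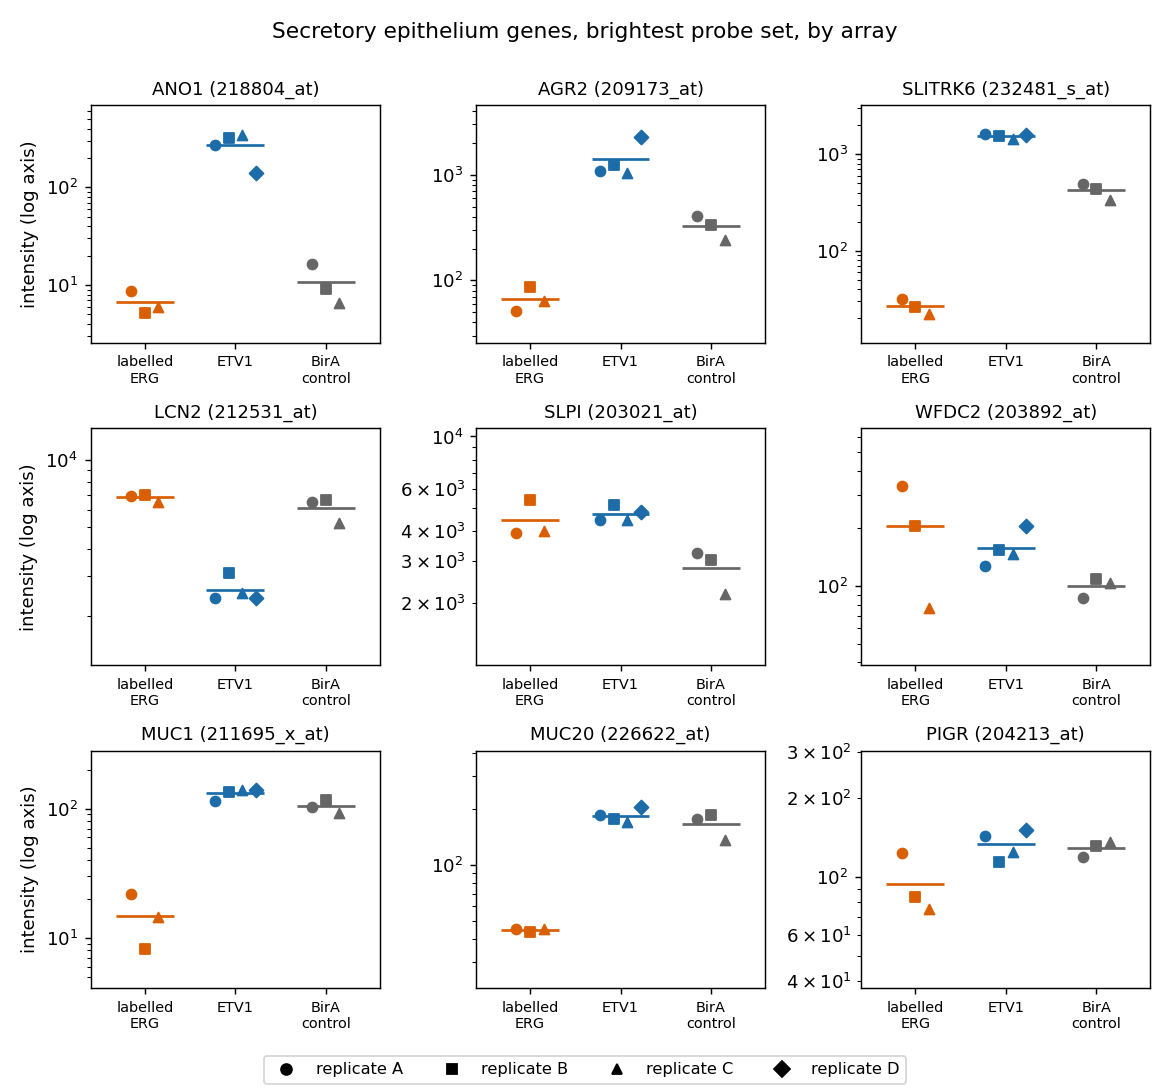
Intensity of the brightest probe set of each of the 9 genes on a log axis, with 1 point per array, the marker shape giving the replicate letter and the bar the group mean, for arrays labelled ERG, ETV1 arrays and BirA control arrays. ANO1, AGR2 and SLITRK6 are highest on all 4 ETV1 arrays, where ANO1 averages 269 against 10.7 on the control arrays, and LCN2 is lowest on the ETV1 arrays.

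ANO1, the calcium-activated chloride channel, was close to the bottom of the scale in control cells and well above the array's median in ETV1 cells. Its probe set 218804_at read 270, 322, 345 and 139 on ETV1 arrays A to D, and 16.5, 9.18 and 6.52 on control arrays A to C. All 4 ETV1 arrays lay above every control array, and the log2 fold change was 3.36 (SE 0.23, 95% interval 2.87 to 3.85). The second ANO1 probe set, 1555269_a_at, read 79.0, 112, 113 and 38.4 on the ETV1 arrays, and 1, 12.3 and 5.76 on the control arrays. Both probe sets put replicate D lowest of the ETV1 arrays, and the second differed by 2.13 (SE 0.25). In rank, 218804_at stood between percentiles 62.8 and 79.0 of all probe sets on the ETV1 arrays and between 9.28 and 21.9 on the control arrays.

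AGR2, a disulfide isomerase of the endoplasmic reticulum that mucus-producing cells need to fold mucins, was already bright in control cells and higher in ETV1 cells. Its probe set 209173_at read 1077, 1238, 1035 and 2267 on ETV1 arrays A to D, and 407, 333 and 239 on control arrays A to C. The groups did not overlap, replicate D was the highest ETV1 array, and the log2 fold change was 2.01 (SE 0.24, 95% interval 1.49 to 2.52). The second AGR2 probe set, 228969_at, did not pass the filter on low values, and it read 42.0 to 73.6 on the ETV1 arrays and 18.9 to 26.3 on the control arrays, again without overlap.

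SLITRK6, a membrane protein with leucine-rich repeats known from neural and inner ear tissue and from some epithelia, was higher in ETV1 cells by all 3 of its probe sets. The brightest, 232481_s_at, read 1605, 1537, 1431 and 1597 on ETV1 arrays A to D, and 494, 438 and 336 on control arrays A to C. Probe set 232176_at read 860, 833, 797 and 839 on the ETV1 arrays, and 188, 178 and 174 on the control arrays. No probe set of the gene overlapped between the groups, and the spread within ETV1 cells was small, at 832 ± 26.2 for 232176_at (SD, n = 4). The log2 fold changes were 1.84 (SE 0.15), 2.11 (SE 0.12) and 2.06 (SE 0.14), the last for 235976_at, which averaged 231 ± 16.9 on the ETV1 arrays and 43.6 ± 8.95 on the control arrays (SD, n = 4 and 3).

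**Figure D2:**
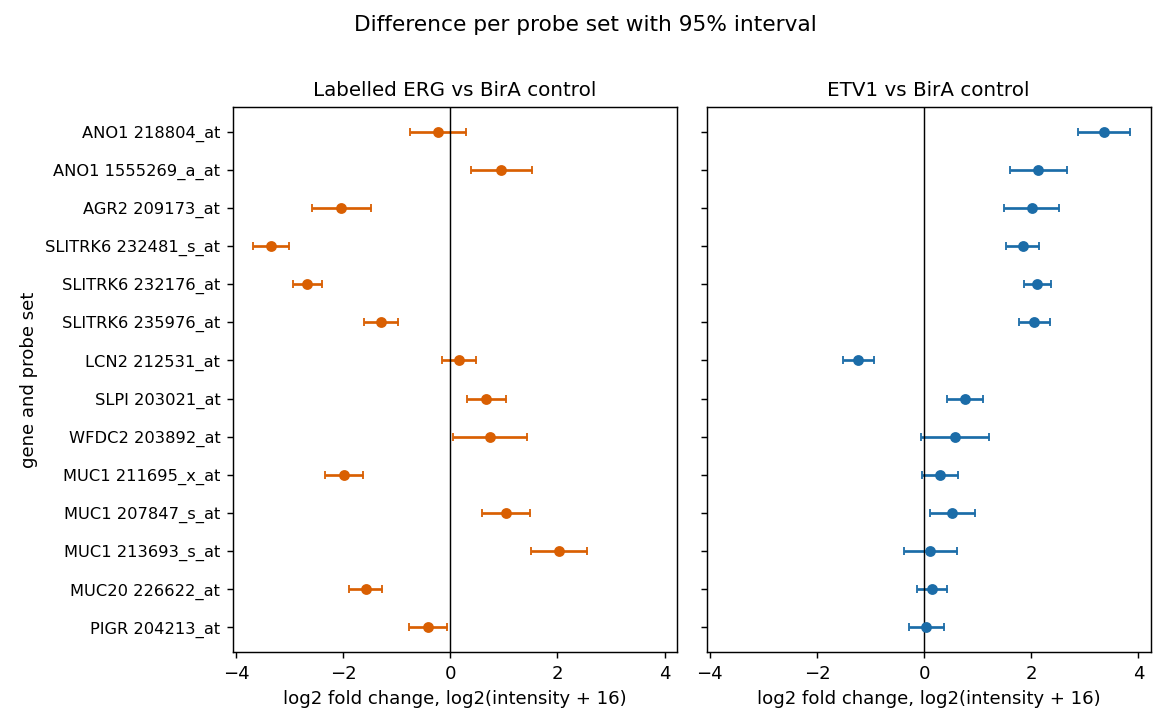
Log2 fold change, on the log2(intensity + 16) scale, of each of the 14 tested probe sets of the 9 genes with its 95% interval, for arrays labelled ERG (left) and ETV1 arrays (right), each against the same 3 BirA control arrays. On the right all probe sets of ANO1, AGR2 and SLITRK6 that were tested lie between 1.84 and 3.36, and on the left the 3 MUC1 probe sets lie on both sides of 0.

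The secreted defence proteins did not move together. LCN2, lipocalin-2, which withholds iron from bacteria by binding their siderophores, read 2404, 3094, 2529 and 2388 on ETV1 arrays A to D, and 6484, 6604 and 5226 on control arrays A to C. The highest ETV1 array lay below the lowest control array, and the log2 fold change was -1.22 (SE 0.14, 95% interval -1.52 to -0.93). SLPI, a secreted inhibitor of neutrophil elastase with a pair of whey acidic protein domains, averaged 4714 ± 330 on the ETV1 arrays and 2809 ± 554 on the control arrays (SD, n = 4 and 3). Its groups did not overlap, with a log2 fold change of 0.76 (SE 0.16, 95% interval 0.42 to 1.10). WFDC2, another whey acidic protein that is secreted by airway and genital epithelia, read 127, 155, 146 and 206 on the ETV1 arrays and 86.5, 109 and 104 on the control arrays by 203892_at. The groups did not overlap, but the log2 fold change of 0.58 (SE 0.30) had an interval of -0.06 to 1.22. The other WFDC2 probe sets, 1553089_a_at and 1552261_at, stayed at or below 28.4 on all ETV1 and control arrays and did not pass the filter.

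By their brightest probe sets, the mucins and the immunoglobulin transporter lay near control levels in ETV1 cells. MUC1, a transmembrane mucin, averaged 132 ± 12.1 on the ETV1 arrays and 104 ± 12.1 on the control arrays by its brightest probe set, 211695_x_at, and the groups overlapped (log2 fold change 0.30, 95% interval -0.03 to 0.62). By 207847_s_at it read 38.6, 39.3, 32.6 and 83.9 on ETV1 arrays A to D, and 24.1, 28.0 and 29.0 on the control arrays. The groups did not overlap by this probe set, and the difference of 0.53 (95% interval 0.11 to 0.95) was not called. It was 0.30 without ETV1 replicate D, and 0.64 and called higher without ETV1 replicate C. MUC20, a transmembrane mucin of kidney and mucosal epithelia, averaged 184 ± 15.3 on the ETV1 arrays and 166 ± 26.8 on the control arrays by 226622_at (log2 fold change 0.14, 95% interval -0.14 to 0.43). Its other 3 probe sets did not pass the filter, and their groups overlapped. PIGR, the receptor that carries dimeric immunoglobulin A across epithelial cells, averaged 133.3 ± 17.0 on the ETV1 arrays and 128 ± 8.57 on the control arrays by 204213_at (0.04, 95% interval -0.29 to 0.37). The intervals of these brightest probe sets leave room for differences of up to 0.62, 0.43 and 0.37 upward.

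The ETV1 arrays differed among themselves in ANO1 and AGR2, and in opposite directions. On replicate D, where ETV1 itself was lowest at 845 by 217053_x_at, against 1302 to 1689 on replicates A to C, ANO1 was lowest and AGR2 highest, as given above. SLITRK6 on replicate D lay within the range of the other ETV1 arrays by its brightest probe set, and was lowest there by 235976_at, at 211. Without replicate D the log2 fold changes were 3.63 for ANO1 (218804_at) and 1.75 for AGR2 (209173_at), and both calls held. The probe set for the 5 prime end of 18S ribosomal RNA read 276 on replicate D and 680 to 874 on the other ETV1 arrays. It also moved with the groups, at 834 to 1103 on the arrays labelled ERG, 276 to 874 on the ETV1 arrays and 79.4 to 159 on the control arrays. Its part in the differences reported here was not tested.

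The 3 genes whose pattern over the 10 arrays was closest to that of ANO1 were also lowest on replicate D among the ETV1 arrays, which the choice itself favours, since likeness was measured over all arrays, replicate D included. Likeness was measured as the root mean square difference of the log2 profiles, each relative to its control mean, among 14044 other genes. OSBP2, an oxysterol-binding protein, was closest, at 0.37, and read 977, 1171, 1076 and 387 on ETV1 arrays A to D, and 117, 91.0 and 103 on the control arrays. IL13RA2, a decoy receptor for interleukin-13, followed at 0.39, with 2158, 2602, 2426 and 1046 on ETV1 arrays A to D, and PDE2A, a cyclic nucleotide phosphodiesterase, at 0.40, with 1118, 1286, 1194 and 420. The next were S100P, a calcium-binding protein, and FBN2, a microfibril protein, both at 0.54, and S100P, unlike these, was highest on replicate D among the ETV1 arrays, at 7656. Closest to AGR2 were LIMCH1 (0.33), IGFL1 (0.50), the proteoglycan VCAN (0.51), NEBL (0.54) and GHDC (0.61). LIMCH1 averaged 37.5 on the arrays labelled ERG, 828 on the ETV1 arrays and 195 on the control arrays. Its replicate D, at 818, lay within the range of the other ETV1 arrays.

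**Figure D3:**
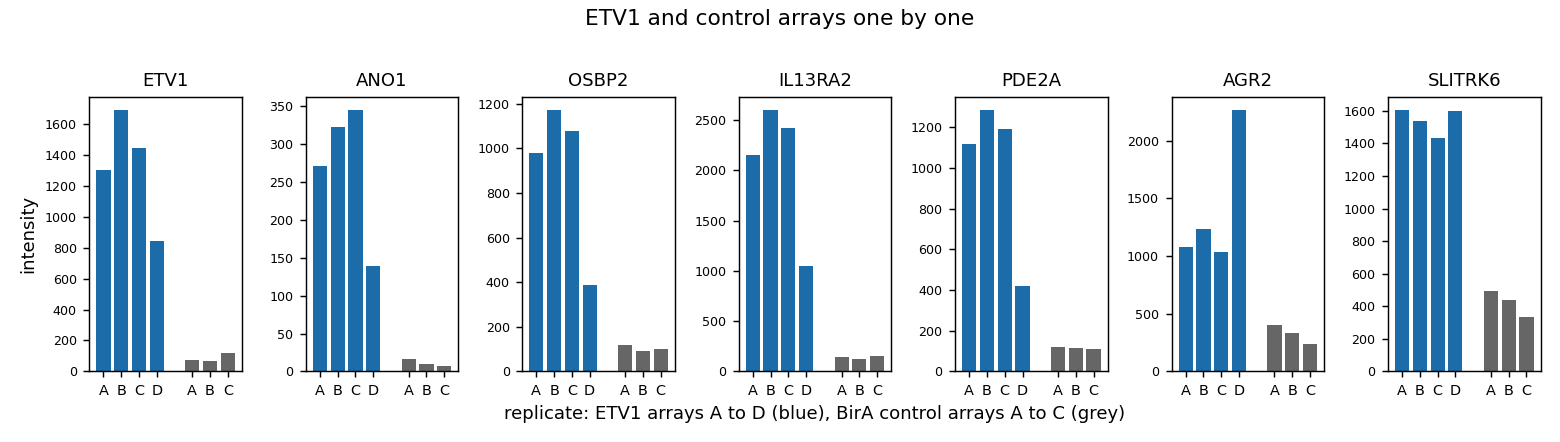
Intensity on each ETV1 array (A to D, blue) and each BirA control array (A to C, grey) for ETV1 (217053_x_at), ANO1, the 3 genes closest to ANO1 in pattern, AGR2 and SLITRK6, with every axis starting at 0. ETV1, ANO1, OSBP2, IL13RA2 and PDE2A are lowest on replicate D among the ETV1 arrays, AGR2 is highest there at 2267, and SLITRK6 differs little between the ETV1 arrays.

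To place the 9 genes among related ones, 7 lists with 140 other genes were taken by role, with earlier results of these data known. Their counts and adjusted p-values, in all 3 comparisons, are therefore a description and not independent evidence. Of the 140 genes, 84 were tested and 45 did not pass the filter, and 11 were not matched and are not analysed here. In ETV1 cells 20 genes rose and 6 fell, or 31.0% of those tested, against 24.0% of all 14045 genes (8.81% higher and 15.2% lower). The median log2 fold change of the 84 genes was 0.09, and that of all genes was -0.06. In the ion and fluid transport list 5 of 15 rose and 1 fell. SCNN1G, a subunit of the epithelial sodium channel, rose to 119 ± 37.6 in ETV1 cells, against 11.8 ± 6.91 in control cells (SD, n = 4 and 3, log2 fold change 2.27, limma adjusted p = 1e-06). It passed the filter only through the ETV1 arrays, where it read 88.9 to 172, so its call is not independent of the filter. The same holds for SCNN1B, DEFB1 and SLIT2 among the genes named for ETV1 cells. The counts of rises that include these genes share that limit. FCGRT, named below, also exceeded the median on control replicate C, but it reached 3 arrays only with the ETV1 arrays. SCNN1B, another subunit of that channel, rose by 1.21, and the calcium-activated potassium channel KCNN4 by 0.65 (limma adjusted p = 0.0023 and 0.0032). Of the other anoctamins tested, ANO6, ANO7, ANO8 and ANO9 did not pass and ANO10 rose by 0.48.

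Genes of the secretory pathway and of complement were among those that rose. Of 11 goblet cell and secretory pathway genes 3 rose and 1 fell. PDIA4, a disulfide isomerase of the endoplasmic reticulum, averaged 1996 ± 77.2 in ETV1 cells and 817 ± 143 in control cells (log2 fold change 1.29, limma adjusted p = 1.4e-05), PDIA3 rose by 0.68, and XBP1, a transcription factor of the unfolded protein response, rose by 0.59. AGR3, the paralog next to AGR2, did not pass the filter, with a mean of 19.5 in ETV1 cells and 19.7 in control cells. Of 13 secreted defence genes 5 rose and none fell, among them the complement proteins C3 at 1.59 (limma adjusted p = 2.2e-05) and CFB at 1.40 (limma adjusted p = 5e-06), and the defensin DEFB1 at 1.01, with DEFB1 at 175 on replicate D and 67.2 to 94.3 on replicates A to C. DEFB1 was not tested once ETV1 replicate B, C or D was left out, since it then fell below the filter. In the mucin list 2 of 14 rose and 1 fell, and the 2 that rose, GCNT3 at 1.13 and GALNT6 at 1.08, encode glycosyltransferases.

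Transcription factors of secretory epithelium went both ways in ETV1 cells, with 2 of 13 higher and 3 lower. FOXA2, a forkhead factor of endodermal epithelia, read 777, 873, 772 and 416 on ETV1 arrays A to D, and 152, 92.2 and 117 on the control arrays. All ETV1 arrays lay above the controls, replicate D was again lowest, and the log2 fold change was 2.38 (SE 0.23, limma adjusted p = 2.5e-06). SOX9, a factor of duct progenitors, rose by 1.70, while ELF3, an epithelial ETS factor, averaged 473 ± 81.8 in ETV1 cells and 874 ± 132 in control cells (-0.87, limma adjusted p = 6.5e-04). Of 15 receptor and cytokine input genes 2 rose and none fell. NFKBIZ, a coactivator that lipocalin-2 induction is known to need, averaged 1087 ± 86.2 in ETV1 cells and 466 ± 62.3 in control cells (1.20, limma adjusted p = 1.6e-05), in the same cells in which LCN2 was lower. FCGRT, the neonatal Fc receptor, rose by 0.72. Of 3 tested genes of the SLITRK family and its partners, the axon guidance ligand SLIT2 rose by 1.74, and no other SLITRK gene passed the filter.

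**Figure D4:**
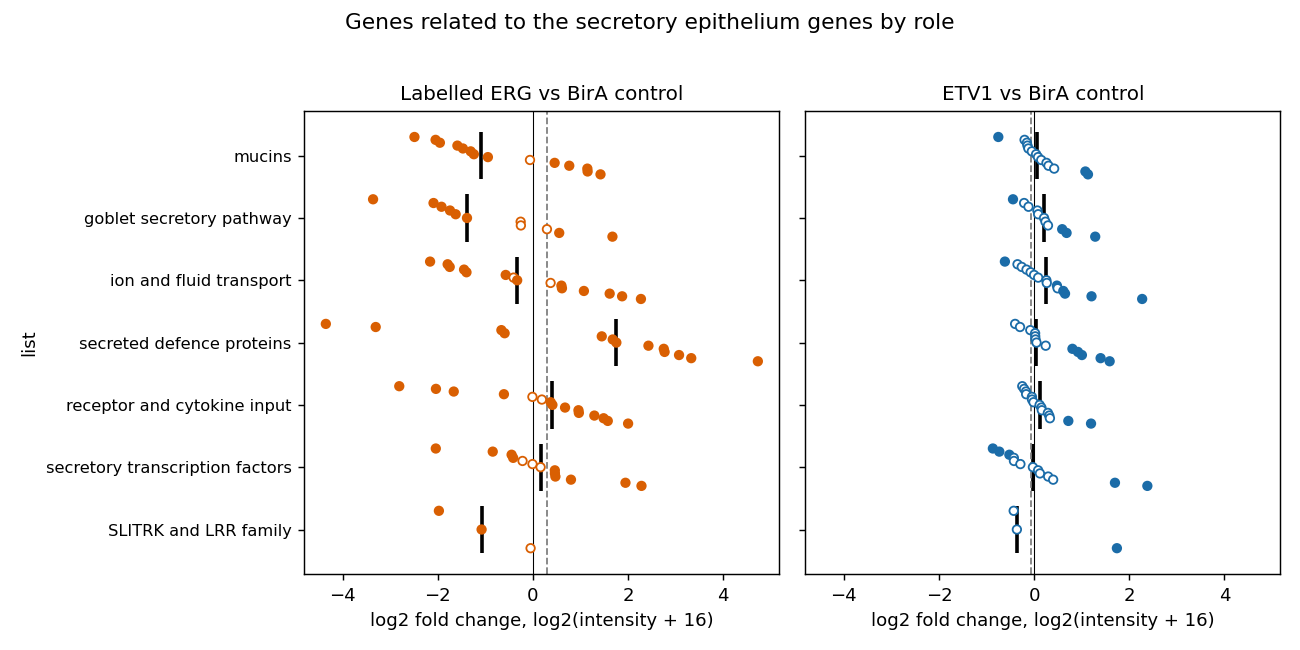
Log2 fold change, on the log2(intensity + 16) scale, of each tested gene in the 7 lists, filled where it passed limma at an adjusted p of 0.05, with the list median as a black bar and the median of all genes as a dashed line, for arrays labelled ERG (left) and ETV1 arrays (right) against BirA controls. Most points on the right lie near 0 with single genes such as FOXA2 at 2.38, and the spread on the left is wider, with 72 of 84 genes passing.

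On the arrays labelled ERG, AGR2, SLITRK6 and the brightest probe set of MUC20 were lower than on the control arrays. Of the 14 member probe sets 5 were called higher and 7 lower, but on these arrays 78.4% of all probe sets were called (43.3% higher and 35.1% lower), and the choice of the genes used this comparison too. The groups did not overlap for 13 of the 21 member probe sets, tested or not, against 76.8% of the probe sets tested, which are unlike sets. The share of higher among called probe sets was 55.2% as deposited and 68.2% after median centring, which moved the median of all log2 fold changes to 0.58, against 0.17 as deposited. SLITRK6 read 31.9, 26.0 and 22.2 on the arrays labelled ERG by 232481_s_at, and at least 336 on every control array, a log2 fold change of -3.35 (SE 0.16). AGR2 read 51.4, 86.0 and 63.5 by 209173_at, and at least 239 on every control array (-2.04, SE 0.26). MUC20 read 45.3, 43.5 and 45.0 by 226622_at, and 177, 186 and 136 on the control arrays (-1.58, SE 0.14). Its dim probe sets, which were not tested, gave no single direction. On average 230043_at was lower, at 7.64 against 49.8 on the control arrays, and 243774_at higher, at 42.3 against 23.7, both without overlap. The groups overlapped by 231941_s_at. In rank, this SLITRK6 probe set stood between percentiles 30.2 and 39.0 on the arrays labelled ERG, against 80.4 to 82.8 on the control arrays.

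These falls stood beside falls of genes that epithelial cells are not known for. The summed intensity of 6 endothelial markers was 230 to 275 on the arrays labelled ERG, 1410 to 1564 on the ETV1 arrays and 1508 to 1684 on the control arrays, and that of 7 fibroblast markers was 255 to 351 on the arrays labelled ERG, 1169 to 1219 in ETV1 cells and 1003 to 1278 in control cells. Neuroendocrine and leukocyte markers were lower on the arrays labelled ERG as well, at 150 to 204 and 164 to 217, against 406 to 490 and 361 to 472 on the control arrays. Some markers lay close to the floor, such as SYP at 1 and LUM at 1.04 on replicate A labelled ERG. PECAM1, an endothelial adhesion molecule, made up most of the endothelial sum, with a mean of 163 on the arrays labelled ERG, against 1393 on the control arrays. The part of these marker changes in the values of AGR2, SLITRK6 and MUC20 was not tested. In sum the 6 basal markers were not lower, at 25288 to 26167 on the arrays labelled ERG, against 17973 to 19965 in control cells. KRT5 rose most, with a mean of 11269, against 5212 on the control arrays (log2 fold change 1.11). ITGB4 (-0.49) and DST (-0.72) were called lower, and KRT14, KRT15 and LAMB3 were not called. The sum of 7 general epithelial markers was 23495 to 24217 on the arrays labelled ERG, against 10613 to 15413 on the control arrays. In that list CLDN4 was called lower (-0.92) and CDH1 was not called, while the others were called higher. The luminal sum of 8 markers was 11372 to 11971 on the arrays labelled ERG, against 9170 to 10697 on the control arrays. It consisted mostly of KRT8, called higher (1.04), and KRT18, not called (0.21). KLK3 (-1.99), ACP3 (-2.00) and TMPRSS2 (-1.43) were called lower, and KLK2, MSMB and FOLH1, with lower means, were not tested.

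**Figure D5:**
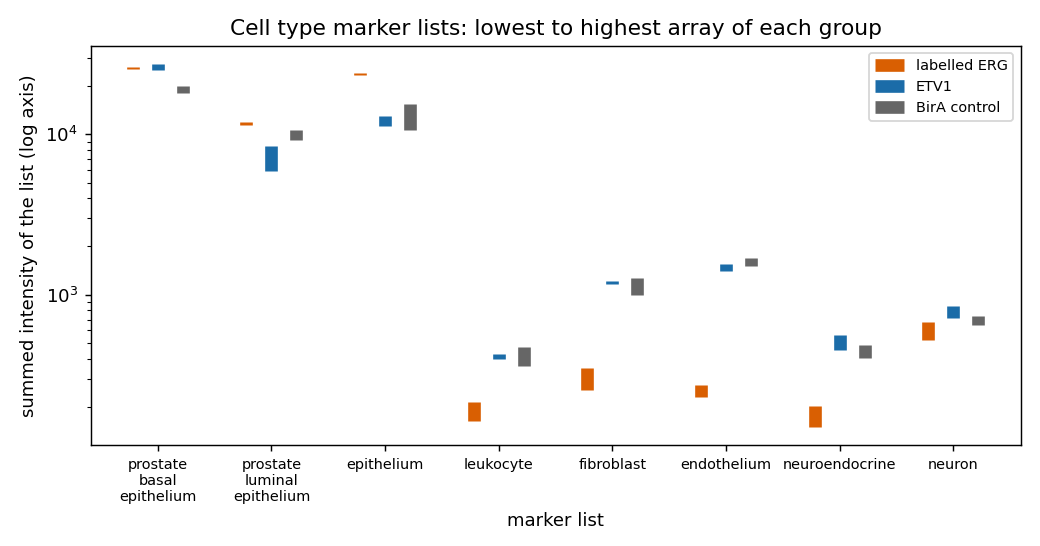
Summed intensity of each marker list on a log axis, as a bar from the lowest to the highest array of the group, for arrays labelled ERG, ETV1 arrays and BirA control arrays. The endothelial sum lies at 230 to 275 on the arrays labelled ERG, against 1508 to 1684 on the control arrays, while the basal epithelial sum is not lower on the arrays labelled ERG.

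Several members gave no single direction on the arrays labelled ERG. MUC1 read 21.9, 8.19 and 14.6 by 211695_x_at, against 103, 117 and 92.7 on the control arrays. By 213693_s_at it read 113, 95.3 and 160, against 20.0, 23.7 and 10.4 on the control arrays. The log2 fold changes were -1.98 and 2.02, and the third probe set, 207847_s_at, gave 1.04, so that the probe sets of the gene disagreed. Probe set 213693_s_at passed the filter only through the arrays labelled ERG, and 207847_s_at would not have reached 3 arrays without them. The higher calls of both are therefore not independent of the filter. Probe set 211695_x_at is of a class designed to match more than the named transcript. The ANO1 probe sets disagreed as well, with -0.23 (95% interval -0.75 to 0.30) by 218804_at and 0.95 by 1555269_a_at, which read 27.4, 31.3 and 21.0. With a pseudocount of 64 the second value was 0.37 and no longer called, and the control values of that probe set lay close to the floor, at 1, 12.3 and 5.76. LCN2 averaged 6800 ± 250 on the arrays labelled ERG, against 6105 ± 763 on the control arrays (SD, n = 3 each, log2 fold change 0.16), but it was called lower after quantile normalization (-0.43) and higher after median centring (0.57). SLPI averaged 4454 ± 837 on the arrays labelled ERG, against 2809 ± 554 in control cells, a log2 fold change of 0.67 that was 0.04 and no longer called after quantile normalization. WFDC2 ranged from 76.9 to 334 over the arrays labelled ERG, overlapped the control arrays, and was not called without any single one of the control arrays or of replicates A and B labelled ERG (0.31 to 0.80). PIGR, at -0.41, was not called after quantile normalization (-0.06) or median centring (-0.01), or without control replicate B (-0.40) or C (-0.38) or replicate B (-0.36) or C (-0.29) labelled ERG.

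Of the 84 related genes, 37 were higher and 35 lower on the arrays labelled ERG, or 85.7%, against 79.4% of all genes (47.7% higher and 31.7% lower). In the secreted defence list 9 of 13 rose and 4 fell. S100A7, an antimicrobial S100 protein, averaged 1113 ± 475 on the arrays labelled ERG, against 24.6 ± 4.42 on the control arrays (SD, n = 3 each, log2 fold change 4.73, limma adjusted p = 1.5e-10), and C3 rose by 3.33, while the phospholipase PLA2G2A fell by 4.35. S100A7 passed the filter only through the arrays labelled ERG, as it read at most 33.2 on the ETV1 and 28.2 on the control arrays. Its call is therefore not independent of the filter. The same holds for WFDC5, WFDC12, CST6 and CAMP in that list, and for ANO7, KCNQ1 and NKX2-1 in other lists. These genes were called higher, but averaged at most 44.6 on the ETV1 arrays and 34.7 on the control arrays. The counts of 9 and 37 that include such genes are not independent of the filter either. In the mucin list 8 of 14 fell and 5 rose, with MUC5AC at -2.49, the small mucin-like MUCL1 at -2.05 and MUC7 at -1.96, and in the secretory pathway list 6 of 11 fell and 2 rose, with the airway protein BPIFA1 at -3.36. The epithelial ETS factor EHF averaged 2782 ± 751 on the arrays labelled ERG, against 553 ± 103 in control cells (2.28, limma adjusted p = 1.2e-08), and SPDEF, an ETS factor of goblet and prostate luminal cells, averaged 108 ± 20.5 on the arrays labelled ERG, against 491 ± 24.2 in control cells (-2.04, limma adjusted p = 4.5e-08). IL17RC and IL17RA, chains of the interleukin-17 receptor, changed by -2.81 and -2.04, and the transcription factor CEBPD rose by 2.00. The lower marker sums given above stand beside these falls too.

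Among the 9 genes, SLITRK6, AGR2 and ANO1 differed most when the arrays labelled ERG were set directly against the ETV1 arrays. The log2 fold change of the arrays labelled ERG over the ETV1 arrays was -5.19 (SE 0.15) for SLITRK6 by 232481_s_at, -4.04 (SE 0.24) for AGR2 by 209173_at and -3.59 (SE 0.23) for ANO1 by 218804_at. LCN2 was higher on the arrays labelled ERG by 1.39 (SE 0.14), or by 0.59 after quantile normalization. SLPI differed by -0.09 (95% interval -0.43 to 0.25), and by -0.89 after quantile normalization, where it was called lower. The groups did not overlap for 12 of 21 member probe sets, tested or not, against 80.2% of the probe sets tested, again unlike sets. Of the 14 member probe sets tested 3 were called higher and 9 lower, beside 82.1% of all probe sets (45.6% higher and 36.5% lower). Of these calls, that of PIGR (-0.46) was lost after quantile normalization (-0.07), after median centring (-0.03), with array weights (-0.24) and without replicate C labelled ERG (-0.33). That of MUC1 by 207847_s_at (0.52) was lost without ETV1 replicate A, B or C or replicate B labelled ERG (0.40 to 0.46). Among the related genes 38 of 84 were higher and 41 lower, against 83.2% of all genes called (50.4% higher and 32.8% lower). The 38 include the genes given above that passed the filter only through the arrays labelled ERG, so that count is not independent of the filter. FOXA2 averaged 59.9 ± 16.2 on the arrays labelled ERG, against 709 ± 201 on the ETV1 arrays (log2 fold change -3.23, limma adjusted p = 2.2e-09), and the water and glycerol channel AQP3 averaged 3929 ± 511 on the arrays labelled ERG, against 1074 ± 547 in ETV1 cells (1.96, limma adjusted p = 1.9e-06). The comparisons with control share the same 3 control arrays, so the members' values in both are given side by side and no overlap was computed.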

How the data were processed

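The authors deposited 1 linear intensity per probe set and array. Their summarisation and normalization are not given in the sources used here. Deposited intensities were used unchanged, on the log2(intensity + 16) scale. GEO's platform annotation named 1 gene for 41091 of 54675 probe sets, several for 1801 and none for 11721, and 62 were controls. The test took probe sets brighter than the array's median on 3 or more arrays, which left 25969 probe sets. Related genes were read from the probe set with the highest mean of the 3 group means, which left 14045 genes. Tests used limma 3.58.1 (lmFit and eBayes, R 4.3.3) on all 3 groups together, leaving 7 residual degrees of freedom. P-values are two-sided and were adjusted over every probe set tested by the Benjamini-Hochberg method, with a threshold of 0.05. The script was tested on simulated data.

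The 9 genes, the lists and the naming rule were chosen with earlier results of these data known. The rule names all 9 genes, up to 3 passing genes per list and comparison whose groups do not overlap, by size of change, the 5 genes closest in pattern to ANO1 and to AGR2, the targeted genes and markers. ANO6 to ANO10, the remaining tested anoctamins, and AGR3 were named after their values were seen, and the promoter motifs were chosen then too. Replicate letters are shared by the groups but did not pair the arrays, with correlations of deviations from -0.10 to 0.09 over 9 same-letter pairs. The alternatives were quantile normalization, median centring, pseudocounts of 1 and 64, no filter, a 75th percentile filter, 1 probe set per gene, only probe sets without the suffixes for several transcripts, a replicate block, array weights, a trended and robust limma fit, a stricter threshold of 0.01, a fit to only the 2 groups compared, and each array left out in turn. Array weights were estimated gene by gene, chosen after the default estimate did not converge. The number of arrays limits the precision.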

Additional observations from a re-analysis of the deposited data

Results flagged for a closer look

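The 4 ETV1 arrays were checked for a single array far from the other 3, by Dixon's criterion, for 76 probe sets, and 9 met it. Chance gives about 1 in 20, and probe sets of 1 array are not independent. In 8 of the 9 the array was replicate D. Among the 9 secretory epithelium genes, replicate D was highest for AGR2 by 209173_at, at 2267, for MUC1 by 207847_s_at, at 83.9, and for MUC20 by 231941_s_at, at 16.7, a probe set that did not pass the filter. Among the related genes it was highest for SCNN1B, at 284, CEBPD, at 2929, and AQP3, at 1891, and lowest for SLIT2, at 98.1, and ATP12A, at 112. On replicate C, KCNN4 was highest, at 265. ANO1 on replicate D, at 139, was lowest but did not meet the criterion.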

How the results depend on the processing

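The 8 calls of member probe sets between ETV1 and control cells were kept under each alternative that tested them, with ANO1 (218804_at) at 2.11 to 4.53, AGR2 (209173_at) at 1.72 to 2.26, LCN2 at -1.33 to -1.02 and SLPI at 0.59 to 0.93. No called member changed sign in any of the 3 comparisons, and the named related genes kept their calls wherever they were tested. Leaving out 1 array gave 4087 to 7155 probe sets passing between ETV1 and control (6102 with all arrays), 17733 to 20295 between arrays labelled ERG and control, and 18697 to 21441 between arrays labelled ERG and ETV1 arrays. With the replicate block 5243 passed between ETV1 and control, and no call of a member changed. Counts moved by over 1.5 times mainly where fewer probe sets were tested. With the 75th percentile filter 11154 probe sets, 4 member probe sets and 39 related genes passed between arrays labelled ERG and control, and 11848, 5 and 44 between arrays labelled ERG and ETV1 arrays. With 1 probe set per gene, the probe sets and member probe sets passing were 3551 and 5 for ETV1 against control, 11223 and 7 for arrays labelled ERG against control, and 11746 and 7 against ETV1. Without probe sets for several transcripts, 3254 probe sets and 17 related genes passed for ETV1 against control, 12291, 7 members and 45 for arrays labelled ERG against control, and 12830, 7 and 52 against ETV1. Array weights gave 12842 probe sets and 46 related genes for ETV1 against control, and the cause was not tested. A threshold of 0.01 left 3454. Median centring put the share of higher calls at 67.4% between arrays labelled ERG and ETV1 arrays, against 55.5% as deposited. Intensities close to the floor of 1 limit what can be said of the low groups of ANO1 and SLITRK6.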

Other observations

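The genes that neighbour the 9 on their chromosomes were called about as often as other genes in ETV1 cells. The neighbours were the nearest 2 tested protein-coding genes on each side, a rule added after the values were seen. Of 36 neighbours 5 were higher and 4 lower in ETV1 cells, beside 8.81% and 15.2% of all genes tested. On the arrays labelled ERG 20 were higher and 11 lower than on the control arrays, beside 47.7% and 31.7% of all genes. Beside ANO1, the neighbours LTO1, FGF4, FADD and PPFIA1 differed between ETV1 and control cells by -0.18, 0.19, 0.42 and 0.03 (log2) and did not pass. Between the arrays labelled ERG and the control arrays they differed by 0.54, -1.04, 3.71 and 0.89, and all were called. Beside SLPI, the elastase inhibitor PI3, of the same whey acidic protein family, averaged 3325 ± 673 on the arrays labelled ERG, 715 ± 257 on the ETV1 arrays and 384 ± 97.1 in control cells (SD, n = 3, 4 and 3, limma adjusted p = 7.8e-08 and 0.040 against control, with the ETV1 and control arrays overlapping). WFDC3, next to WFDC2, averaged 13.3 ± 11.4 on the arrays labelled ERG, against 264 ± 25.3 on the ETV1 arrays.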
